A study of Mus musculus with 24 samples.

Results

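The 31 genes described here make cholesterol, sense it, carry it inside the cell or pass it out of the cell. They were taken as a named list, by gene symbol and Ensembl identifier, from 30699 genes with a row in any of the 4 deposited tables, and all 31 had a row in each table. Their transcripts were measured by mRNA sequencing in white fat (white adipose tissue, WAT) and brown fat (BAT) of C57BL/6 mice. The animals had received 2 subcutaneous injections of 25 mg/kg of an oligonucleotide with locked nucleic acid bases, a chemistry that binds a target RNA tightly. The oligonucleotide was antimiR-224, antimiR-452 or, in the control mice, scramblemiR, which has a scrambled sequence and no intended microRNA target. Each of the 6 groups (WAT antimiR-224, WAT antimiR-452, WAT scramblemiR, BAT antimiR-224, BAT antimiR-452 and BAT scramblemiR) had 4 libraries, 24 in all. Age and sex were not given in the labels used here, and no group received no injection at all, so every comparison is of an injected inhibitor with an injected control. The comparisons ask how transcripts of fat differ once either microRNA is inhibited.

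A cell builds cholesterol from acetyl-CoA in a chain of enzyme steps, first to isoprenoid units by way of mevalonate and then by way of squalene and lanosterol to the sterol itself. The transcription factor SREBP2, encoded by Srebf2, turns these genes on together when sterols in the endoplasmic reticulum are low. It is carried to the Golgi by SCAP for this, and INSIG proteins hold it back when sterols are plentiful. Surplus sterol activates liver X receptors, which raise the efflux pumps ABCA1 and ABCG1 and MYLIP, a ligase that limits sterol uptake. Adipocytes hold a large store of free cholesterol at the surface of the lipid droplet and exchange it with lipoproteins.

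By role, the 31 genes were 7 of the mevalonate arm (Acat2, Hmgcs1, Mvk, Pmvk, Mvd, Idi1 and Fdps) and 11 of the sterol arm (Fdft1, Sqle, Lss, Cyp51, Tm7sf2, Msmo1, Nsdhl, Hsd17b7, Ebp, Sc5d and Dhcr7), together 18 synthesis genes. A further 4 belonged to sterol sensing (Insig1, Insig2, Srebf2 and Scap), 5 to uptake and transport inside the cell (Stard4, Tmem97, Npc1, Npc2 and Mylip) and 4 to efflux and the liver X receptors (Abca1, Abcg1, Nr1h2 and Nr1h3).

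The mature sequences of the inhibited microRNAs are shown because a direct target would carry a match to a seed. The labels do not say which arm of each hairpin the inhibitor was directed against, so both arms are given, from RefSeq on GRCm38.p6, with the seed (bases 2 to 8) in capitals.
mmu-miR-224-5p: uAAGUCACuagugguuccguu
mmu-miR-224-3p: aAAUGGUGcccuagugacuaca
mmu-miR-452-5p: uGUUUGCAgaggaaacugagac
mmu-miR-452-3p: uCAGUCUCaucugcaaagaggu
All 4 lie on the minus strand of chromosome X, miR-224-5p at chrX:72261085-72261105 and miR-452-5p at chrX:72262271-72262292, and no 2 of them share a seed. In the longest annotated 3′ untranslated region of each gene (GENCODE M21, GRCm38), a match to bases 2 to 8 of miR-224-5p (GTGACTT) stood in 2 of the 31 genes (6.45%), against 13.3% of 18363 protein-coding genes with a row. For miR-224-3p (CACCATT) it stood in 4 of 31 (12.9%, against 9.09%), for miR-452-5p (TGCAAAC) in 5 of 31 (16.1%, against 9.81%) and for miR-452-3p (GAGACTG) in 5 of 31 (16.1%, against 13.1%). In all, 13 of the 31 held at least 1 match, which is a description of the letters and not a shown site.

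A choice of the matches, in genes that recur in the results, is shown with 8 bases on each side and the seed match in capitals, from GENCODE M21 on GRCm38.
Mylip (miR-224-5p, first match): gcaatcctGTGACTTcccaaggg
Mylip (miR-224-5p, second match): caccgtggGTGACTTccttccta
Srebf2 (miR-224-3p): gatgaggtCACCATTgggcctga
Srebf2 (miR-452-3p): gtcctctaGAGACTGtctccttt
Fdft1 (miR-452-3p): gagctcccGAGACTGcaggcttg
Sc5d (miR-452-5p): gcactgtgTGCAAACatcactca
Abca1 (miR-452-5p): ttctcaagTGCAAACacttctgg
Other matches, not shown, were in Acat2, Hmgcs1 and Abca1 (miR-224-3p), Stard4 (miR-224-5p and miR-452-3p), Pmvk and Cyp51 (miR-452-3p) and Dhcr7, Npc2 and Abcg1 (miR-452-5p). Genes with a match had deposited ratios on both sides of 0. In WAT after antimiR-452, the 5 genes with a miR-452-5p match had log2 ratios of inhibitor over scramblemiR between -0.64 and 0.12 in the authors' deposited table, 4 of them below 0. The 5 genes with a miR-452-3p match ran from -0.73 to 0.78 there, 3 of them below 0. Over all 17824 genes with a mean of at least 10 there, 56.8% were below 0. In WAT after antimiR-224, the 4 genes with a miR-224-3p match ran from -0.48 to 0.40 in the authors' deposited table, 3 of them below 0. The 2 with a miR-224-5p match were at -0.04 and 0.60, and 52.9% of 17903 genes were below 0 there. In BAT after antimiR-452, 4 of 5 (miR-452-5p) and 3 of 5 (miR-452-3p) were below 0, against 43.9% of 14672 genes. In BAT after antimiR-224, 3 of 4 (miR-224-3p) and 1 of 2 (miR-224-5p) were below 0, against 55.5% of 14537 genes.

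Promoter sequences (250 bases before to 50 after the start, RefSeq, GRCm38.p6) were matched for 25 of the 31 genes, and not for Fdps, Fdft1, Sqle, Stard4, Npc1 and Abcg1. They were searched on both strands for TCACNCCAC, a form of the sterol regulatory element that SREBP2 binds, and for CCAAT, the box of the factor NF-Y that is known to work beside it. CCAAT stood in 20 of 25 (80.0%), against 41.1% of 27025 genes with a promoter, with 5 of 6 in the mevalonate arm, 9 of 9 in the sterol arm, 3 of 4 in sterol sensing, 3 of 3 in uptake and transport and 0 of 3 in efflux. TCACNCCAC stood in 1 of 25 (4.0%), Hmgcs1, against 1.44% of all genes. A gene with several promoters was counted when any of them held the motif, as in Dhcr7, Insig2 and Pmvk, where 1 promoter held CCAAT and the others did not. The promoters of Hmgcs1, which holds both motifs, and of Hsd17b7, the gene with the smallest p in BAT after antimiR-224, are shown with matches in capitals (ATTGG is CCAAT on the other strand).
Hmgcs1 (chr13:119690101-119690400, plus strand): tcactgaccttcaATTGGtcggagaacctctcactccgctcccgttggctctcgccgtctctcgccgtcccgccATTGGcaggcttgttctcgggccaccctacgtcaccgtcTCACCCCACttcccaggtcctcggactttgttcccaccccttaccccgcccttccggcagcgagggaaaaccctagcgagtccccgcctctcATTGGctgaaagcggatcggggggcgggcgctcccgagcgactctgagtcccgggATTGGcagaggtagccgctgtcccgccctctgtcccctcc
Hsd17b7 (chr1:169969156-169969455, minus strand): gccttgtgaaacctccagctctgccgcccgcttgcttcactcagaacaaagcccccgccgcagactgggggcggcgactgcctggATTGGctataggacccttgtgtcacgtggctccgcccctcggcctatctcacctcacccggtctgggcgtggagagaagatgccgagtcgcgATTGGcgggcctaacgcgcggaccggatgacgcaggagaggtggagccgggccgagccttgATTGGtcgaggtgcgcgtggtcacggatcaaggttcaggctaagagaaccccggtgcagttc

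The tables gave group means of normalized counts, that is, reads divided by a size factor for depth. The whole reads of each library were recovered from these means, and libraries are numbered within a group by descending size factor, since they cannot be tied to the numbers in the labels. Reads in genes were 22175430 to 27935908 in the WAT scramblemiR libraries and 16960694 to 20255777 in the BAT scramblemiR libraries. Several libraries stood apart by genes of other cell types, given as the geometric mean over a marker list. Sperm lineage genes (11 of 11 recovered) were at 680 and 168 in WAT antimiR-224 libraries 3 and 4 and at 2400.1 in WAT scramblemiR library 2, against 1.07 to 2.62 in the other WAT scramblemiR libraries. Epithelium genes (7 of 7) were at 989 and 1313 in WAT antimiR-224 libraries 1 and 2 and at 765 to 1067 in WAT antimiR-452 libraries 1 to 3, against 26.2 to 139 in the WAT scramblemiR libraries. Skeletal muscle genes (8 of 8) were at 570.5 in WAT antimiR-452 library 3, against 7.01 to 17.4 in the WAT scramblemiR libraries. For BAT, a second list of 21 muscle genes was used, of which 14 were recovered with antimiR-452 and 16 with antimiR-224. The 14 were at 868 in antimiR-452 library 1 and at 499 and 273 in scramblemiR libraries 1 and 2. Scramblemir libraries 3 and 4 had them at 0.617 and 0.803, and antimiR-452 libraries 2 to 4 at 12.2, 0.427 and 43.7. The 16 were at 246 in antimiR-224 library 1 and at 632 and 383 in scramblemiR libraries 1 and 2, against 0.901 to 5.31 in the other libraries. In bulk tissue, fewer cells of a type and less RNA per cell cannot be told apart. Defining genes of mature adipocytes were at 36987 to 57880.2 in the WAT scramblemiR libraries and 10680.5 to 16399 in the BAT scramblemiR libraries, and those of brown adipocytes at 24.5 to 77.3 in WAT and 7070 to 11878 in BAT.

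In WAT after antimiR-224, no cholesterol gene passed an adjusted p of 0.05. The authors' deposited table has 1 gene of 29128 past it (0.00343%), and that gene is not among the 31. At an unadjusted p under 0.05 stood 1 of 31 genes, Fdft1, against 2.29% of all genes with a mean of at least 10. The synthesis genes lay mostly below their scramblemiR values, and so did all 10 mature adipocyte genes (median log2 ratio -0.43 in the authors' deposited table). Erythroid genes were below 0 in 7 of 7 (median -1.0) and macrophage genes above 0 in 12 of 12 (median 0.47) in the authors' deposited table. Brown adipocyte genes were below 0 there in 5 of 8 (median -1.05). The part of these cell types in the synthesis values was not tested. As log2 ratios of inhibitor over scramblemiR in the authors' deposited table, 23 of 31 genes were below 0 and their median was -0.39, against 52.9% of 17903 genes and -0.02. All 7 mevalonate genes and 9 of 11 sterol arm genes were below 0, with a median of -0.64 over the 18. Idi1, which isomerizes the first isoprenoid unit, had a log2 ratio of -1.12 in the authors' deposited table, and Fdps, which makes farnesyl diphosphate, had -1.01. Lss, Tm7sf2, Pmvk, Dhcr7 and Cyp51 ranged from -0.82 to -0.70 there, while Sqle, Msmo1 and Hsd17b7 lay between -0.02 and 0.04. Sterol sensing was split, with Insig1 at -1.01 and Insig2, Srebf2 and Scap at 0.19, 0.40 and 0.05 in the authors' deposited table. In uptake and transport, Tmem97 was at -0.56, Npc2, Mylip and Npc1 at -0.16, -0.04 and 0.05, and Stard4 at 0.60. Among the efflux genes only Abcg1, the pump that delivers sterol to HDL, was above 0 there, at 0.35.

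**Figure D1:**
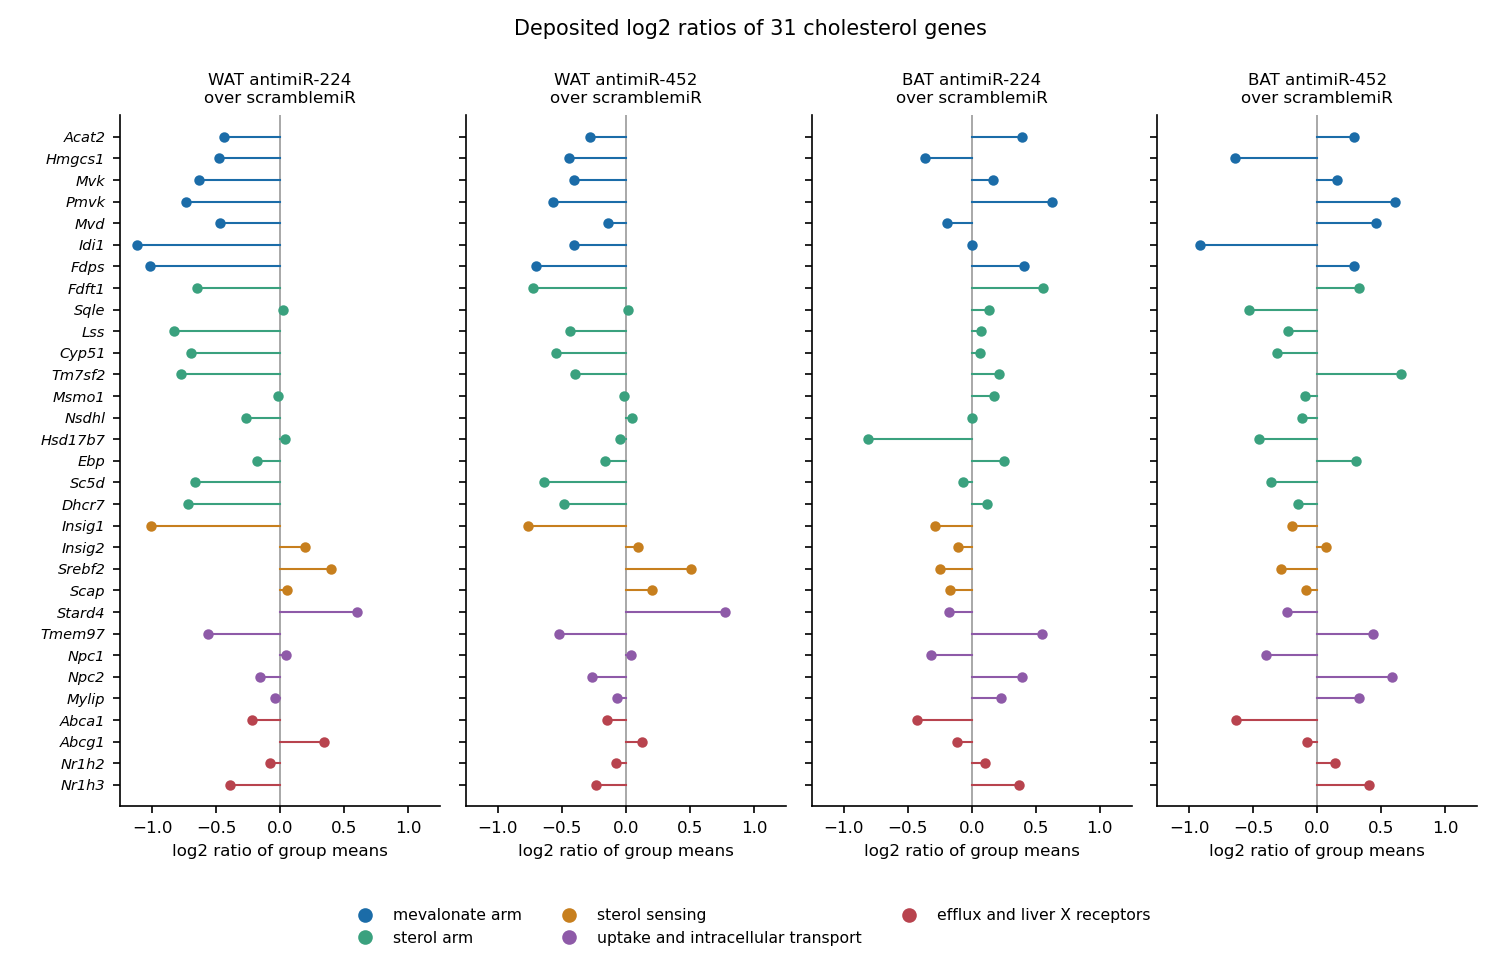
Each panel shows 1 comparison in the authors' deposited tables, with the log2 ratio of inhibitor over scramblemiR on the horizontal axis and 1 point for each of the 31 genes, coloured by role. In both WAT panels 16 of the 18 synthesis genes lie below 0, whereas in BAT 4 of 18 do after antimiR-224 and 10 of 18 after antimiR-452.

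The plot of deposited ratios by comparison sets the 4 tables side by side. Both WAT tables used the same 4 scramblemiR libraries, and both BAT tables shared theirs, so the panels of a tissue are not independent of each other.

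Fdft1, squalene synthase, which commits farnesyl diphosphate to sterols, had the smallest deposited p of the 31 in both WAT tables. The gene (ENSMUSG00000021273) lies at chr14:63145150-63179578, minus strand, GRCm38. Its normalized counts were 679, 744, 926 and 943 in the WAT antimiR-224 libraries, against 1231, 1319, 1154 and 1451 in the WAT scramblemiR libraries. Every antimiR-224 library was below every scramblemiR library. The means were 823 ± 132 with antimiR-224 and 1289 ± 127 with scramblemiR (SD, n = 4 each). The limma test on log2(normalized count + 1) gave a difference of -0.65 with a standard error of 0.14, an unadjusted p of 0.00103 and a Benjamini-Hochberg adjusted p of 0.842. The authors' deposited table gave an unadjusted p of 0.0435 and an adjusted p of 1. Fdft1 shares 18.3% of its exon bases with Ctsb on the opposite strand and 26.5% of its 50-base words with other genes, and whether counting used strand is not given in the sources used here, so reads of the pair cannot be told apart. Ctsb, a lysosomal protease gene, had a log2 ratio of -0.27 in the authors' deposited table for each WAT comparison.

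Sc5d, a desaturase late in the pathway, came next by deposited p. Its counts were 1029, 1006, 1141 and 1346 in the WAT antimiR-224 libraries, against 1611, 1208, 1524 and 2828 in the WAT scramblemiR libraries. The groups overlapped through scramblemiR library 2. Limma gave a difference of -0.60 (standard error 0.24, unadjusted p 0.0359, adjusted p 0.842), and the authors' deposited table gave a p of 0.0784. Nr1h3, which encodes the liver X receptor alpha, came after it, with means of 2742 with antimiR-224 and 3604 with scramblemiR and a p of 0.111 in the authors' deposited table. Its antimiR-224 reads could not be recovered one by one, as was so for 5 of the 31 genes in each WAT comparison (Hmgcs1, Insig2, Npc2, Abca1 and Nr1h3).

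Of the 26 genes limma tested in WAT after antimiR-224, 0 passed an adjusted p of 0.05, as did 0 of all 16258 genes (0.0%). At an unadjusted p under 0.05 there were 5 of 26, all of synthesis, against 5.89% of all genes. They were Fdft1, Sc5d and, named after their values were seen, Mvk, Idi1 and Cyp51. With 1 library left out at a time, the number of the 26 at such a p ran from 1 to 11. It was 1, for example, without antimiR-224 library 1, where 599 of all 16242 genes had such a p. It was 11 without scramblemiR library 2, where 2299 of 15686 genes did. Mvk, mevalonate kinase, had counts of 346, 349, 377 and 388 with antimiR-224, against 575, 386, 482 and 818 with scramblemiR (limma log2 -0.58, unadjusted p 0.0243). Cyp51, the lanosterol demethylase, had 1131, 1113, 1037 and 806 with antimiR-224, against 1473, 1145, 1236 and 2782 with scramblemiR (limma log2 -0.62). Idi1 had 17.4, 22.3, 17.5 and 14.4 with antimiR-224, against 47.8, 30.1, 18.8 and 58.6 with scramblemiR (limma log2 -0.97, unadjusted p 0.0495). Fdft1 and Cyp51 were the 2 of 26 genes whose antimiR-224 libraries were all below the scramblemiR libraries, against 1.75% of all genes, and 0 of 26 had them all above, against 1.7%. The efflux genes that could be read per library differed in spread. Nr1h2 had 1950.3, 1855, 1838 and 1859 with antimiR-224, against 2012, 1901, 2034 and 1966 with scramblemiR, and Abcg1 had 1324, 759, 1727 and 2812 with antimiR-224, against 887, 1395, 2254 and 673 with scramblemiR.

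In WAT after antimiR-452, Fdft1 was again the member with the smallest deposited p, and no member passed the adjusted threshold. The authors' deposited table held 0 of 29079 genes past the adjusted threshold (0.0%), with 702 at an unadjusted p under 0.05. Among genes with a mean of at least 10 there were 661 of 17824 (3.71%), and of the 31 genes Fdft1 was the only 1. Below 0 were 23 of 31 genes as log2 ratios, and the median was -0.23, against 56.8% of 17824 genes and -0.04. The synthesis genes had a median of -0.41, with 16 of 18 below 0, and Fdps and Insig1 stood at -0.70 and -0.77 in the authors' deposited table. Mature adipocyte genes were below 0 in 10 of 10 (median -0.31) and erythroid genes in 7 of 7 (median -2.80) in the authors' deposited table. Brown adipocyte genes were below 0 there in 6 of 8 (median -0.57). Erythroid genes (6 of 7 recovered) were at 59.5 to 223.9 in the antimiR-452 libraries and 228 to 1527 in the scramblemiR libraries. The part of these cell types was not tested. Fdft1 had counts of 640.3, 849, 953 and 689 in the WAT antimiR-452 libraries, against 1232, 1329, 1163 and 1464 in the WAT scramblemiR libraries. The groups did not overlap here either. In limma the difference was -0.74 (standard error 0.15, unadjusted p 8.59e-04, adjusted p 1.0), and the authors' deposited table gave an unadjusted p of 0.0178.

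Stard4 and Srebf2 lay on the other side. Stard4, a carrier that moves cholesterol between membranes, had counts of 578, 707, 610.2 and 281 with antimiR-452, against 245, 331, 296 and 399 with scramblemiR in WAT. Libraries 1 to 3 of antimiR-452 were above every scramblemiR library, and library 4 fell within their range. The limma difference was 0.72 (standard error 0.29, unadjusted p 0.0354, adjusted p 1.0), with p 0.0614 in the authors' deposited table. Srebf2 had counts of 1869, 1901, 1869 and 1235 with antimiR-452, against 1108, 1490.5, 1165 and 1069.7 with scramblemiR. Library 4 of antimiR-452 again fell within the scramblemiR range. By limma the log2 difference was 0.50 (standard error 0.17, unadjusted p 0.019, adjusted p 1.0), with p 0.0635 in the authors' deposited table.

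The same 3 antimiR-452 libraries were the ones high in epithelium genes (765, 1067 and 826, against 29.0 in library 4), with library 3 also the one high in muscle genes, and in WAT antimiR-224 the pattern of libraries was alike. There Srebf2 was at 1926 and 1921 in libraries 1 and 2 and at 1314 and 1160.4 in libraries 3 and 4, against 1060.2 to 1480.0 with scramblemiR. Stard4 was at 569 and 675 in libraries 1 and 2 and at 353 and 313 in libraries 3 and 4, against 245 to 395 with scramblemiR. The part of epithelium or muscle RNA in these values was not tested. Without WAT antimiR-452 library 4, limma called Stard4 (log2 1.01, adjusted p 0.0322) among 529 of 16512 genes (3.2%).

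**Figure D2:**
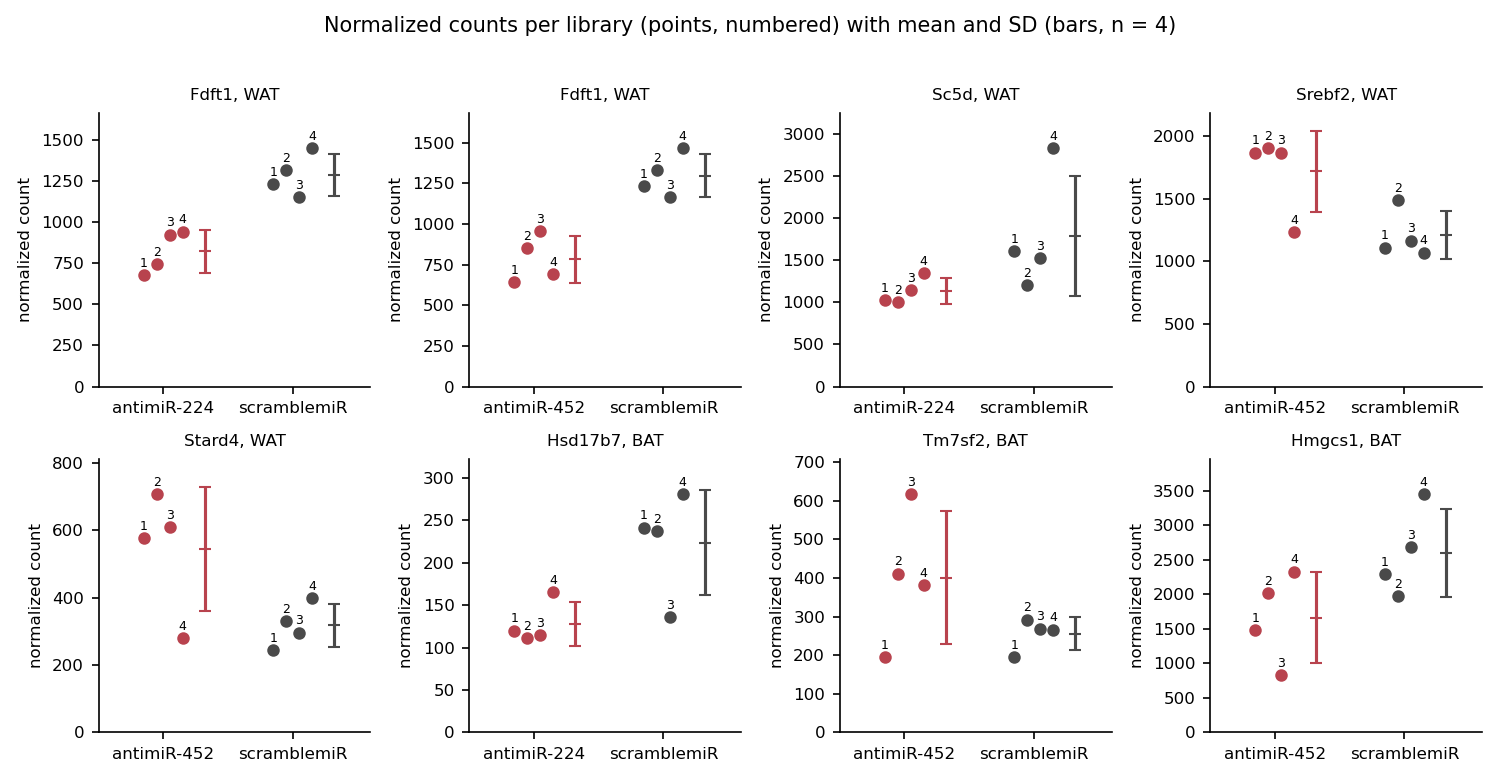
Normalized counts of 8 gene and comparison pairs are plotted for each library, with the inhibitor libraries left of the scramblemiR libraries and a bar for the mean with its SD (n = 4 each). Fdft1 is separated between the groups in both WAT comparisons, while in the other panels at least 1 library falls among those of the other group.

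Of 26 genes tested by limma in WAT after antimiR-452, 0 passed the adjusted threshold, as did 0 of 16435 genes (0.0%). An unadjusted p under 0.05 was reached by 4 (Fdft1, Srebf2, Stard4 and Sc5d), against 4.5% of all genes. With 1 library left out at a time, this number ran from 1 to 7. It was 1, for example, without antimiR-452 library 2 (324 of all 16395 genes), and 7 without scramblemiR library 2 (1117 of 15584). Fdft1 was the 1 of 26 genes with all antimiR-452 libraries below the scramblemiR libraries, against 0.681% of all genes, and 0 of 26 had them all above, against 0.937%. The plot of counts by library shows Fdft1 in both WAT comparisons beside the genes with the smallest p in the others. Sc5d had 1065, 1139, 1225 and 1198 with antimiR-452, against 1612, 1216, 1536 and 2853 with scramblemiR (limma log2 -0.57, unadjusted p 0.0371).

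How low the synthesis genes lay in WAT depended on 1 control library, in part after antimiR-224. After antimiR-452 they no longer lay low as a group without that library. The geometric mean over the 17 recovered synthesis genes (normalized count + 1) was 348, 378, 316 and 290.1 in the WAT antimiR-224 libraries, against 463, 331, 359.8 and 779 in the WAT scramblemiR libraries. ScramblemiR library 4 was the highest of its group in 17 of 17 genes, and library 2 the lowest in 12 of 17. Per gene, the highest scramblemiR library was a median of 3.01 times the lowest over the synthesis genes, against 1.73 times over all genes tested, and in the antimiR-224 group these ratios were 1.40 for synthesis genes and 1.57 for all genes. In the WAT antimiR-452 libraries the geometric mean was 354, 383, 434 and 377, against 463, 334, 362 and 786 in the same scramblemiR libraries on that table's scale.

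Without scramblemiR library 4, limma's log2 difference after antimiR-224 was below 0 for 12 of 17 synthesis genes, with a median of -0.27, against 15 of 17 and -0.58 with all libraries. After antimiR-452 it was below 0 for 8 of 17, with a median of 0.03, against 14 of 17 and -0.27 with all libraries. Library 4 held the simple epithelium genes at 139, the highest of the 4 controls, whereas ciliated epithelium genes (9 of 10) were highest in library 2, at 187, against 74.8 in library 4. Mesothelium genes (5 of 6, antimiR-452 table) were at 304 in library 4, against 1032 to 1561 in the other controls. Brown adipocyte genes (8 of 8, antimiR-224 table) were at 103.7 and 70.2 in scramblemiR libraries 1 and 4, against 33.2 and 34.1 in libraries 2 and 3. They were at 23.3 to 51.5 in the antimiR-224 libraries. Library 4 held Insig1 at 4121, against 980.1 to 1961 in the other scramblemiR libraries, while Srebf2 was lowest of the controls there. The cause of the high synthesis values in library 4 was not tested. Without antimiR-224 libraries 1 and 2, both high in epithelium genes, 16 of 17 synthesis genes were below 0, with a median of -0.53. Leaving out scramblemiR library 2, high in sperm lineage genes, gave 16 of 17 and a median of -0.74.

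**Figure D3:**
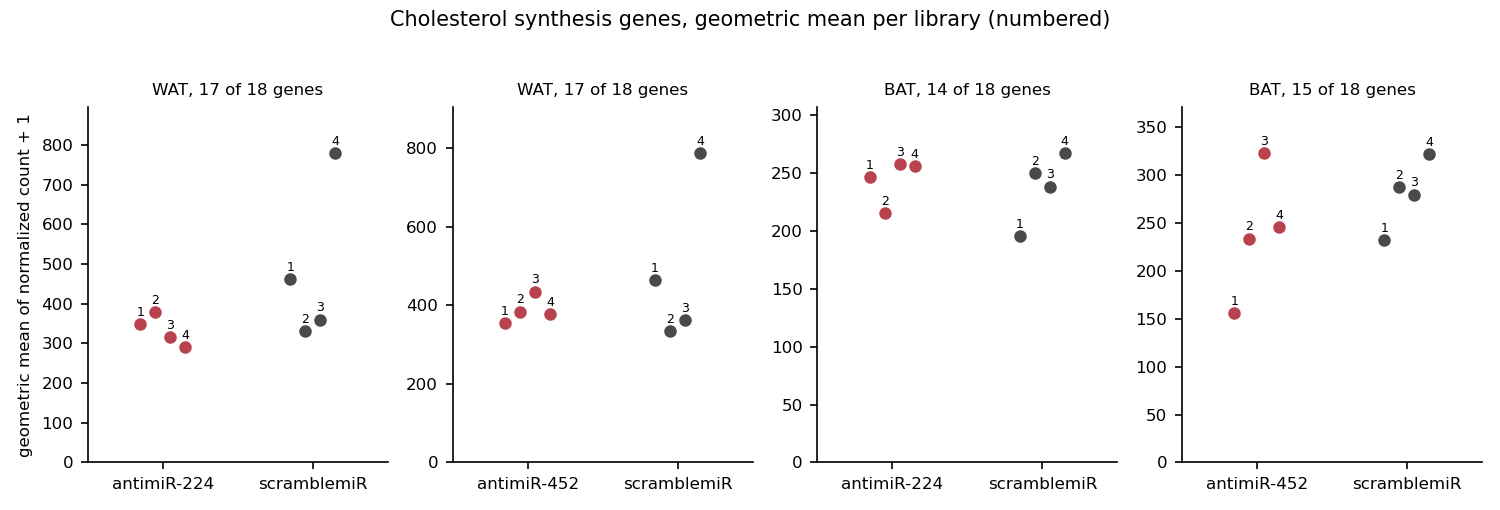
The geometric mean of normalized count + 1 over the recovered synthesis genes is plotted for each library of the 4 comparisons, inhibitor libraries left of scramblemiR libraries. In WAT, 1 scramblemiR library stands at 779, above the next at 463, and the antimiR-224 libraries lie between 290.1 and 378.

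The plot of the synthesis mean by library places the WAT difference mainly between the inhibitor libraries and 2 of the 4 controls, since scramblemiR libraries 2 and 3 lie within the range of the antimiR-224 libraries. Leaving out the WAT libraries high in sperm lineage genes, which keeps only antimiR-224 libraries 1 and 2, limma called 1196 of 15375 genes (7.78%) and 3 of the 26 cholesterol genes. Fdft1 fell by 0.84 on the log2 scale (adjusted p 0.0246), Srebf2 rose by 0.80 (adjusted p 0.0147) and Stard4 rose by 1.02 (adjusted p 0.0446) in that selection. The 2 it keeps are those with high epithelium genes, so antimiR-224 and epithelium content cannot be told apart there.

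In BAT after antimiR-224, synthesis genes did not lie below scramblemiR as a group. No gene of 24084 was past the adjusted threshold in the authors' deposited table (0.0%). At an unadjusted p under 0.05 were 276 of these genes and 1 of the 31. Among genes with a mean of at least 10 there were 189 of 14537 (1.3%). As log2 ratios, 12 of the 31 were below 0 and the median was 0.07, against 55.5% of 14537 genes and -0.05. Of the 18 synthesis genes 4 were below 0, and Pmvk, Fdft1, Fdps and Acat2 were at 0.63, 0.55, 0.41 and 0.39 in the authors' deposited table. All 4 sterol sensing genes were below 0, between -0.28 and -0.11.

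Hsd17b7, a reductase in the removal of the methyl groups of lanosterol, had the smallest deposited p in BAT after antimiR-224. It lies at chr1:169949535-169969241, minus strand, GRCm38. Its counts were 119.8, 111, 115 and 166 in the BAT antimiR-224 libraries, against 241, 237, 136 and 281 in the BAT scramblemiR libraries. Of the antimiR-224 libraries only library 4 reached the scramblemiR range, whose lowest value, 136, was library 3. The means were 128 ± 25.5 with antimiR-224 and 223.6 ± 61.9 with scramblemiR (SD, n = 4 each). Limma gave a difference of -0.77 (standard error 0.26, unadjusted p 0.0148, adjusted p 0.756), and the authors' deposited table gave an unadjusted p of 0.0474.

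Pmvk, phosphomevalonate kinase, had means of 1994 with antimiR-224 and 1289.7 with scramblemiR in the authors' deposited table (p 0.0692). Fdft1 had 3285 with antimiR-224 and 2238 with scramblemiR there (p 0.139), on the other side of 0 from WAT. Reads of both were among the 11 genes not recovered in this comparison. Tmem97, a membrane protein that binds the cholesterol transporter NPC1, had counts of 112, 127, 154 and 106 with antimiR-224, against 58.2, 94.8, 106 and 81.6 with scramblemiR. The lowest antimiR-224 library lay just above the highest scramblemiR library. In limma the difference was 0.57 (standard error 0.25, unadjusted p 0.0457, adjusted p 0.756). Tmem97 was the 1 of 20 genes with all antimiR-224 libraries above the scramblemiR libraries, against 2.22% of all genes (0 of 20 had them all below, against 1.33%), and it was named after its values were seen. Limma called 0 of 20 cholesterol genes and 0 of 12594 genes (0.0%), with 2 of 20 at an unadjusted p under 0.05, against 5.55% of all genes.

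The geometric mean over 14 recovered synthesis genes was 247, 215, 258 and 256 in the BAT antimiR-224 libraries, against 196, 249.7, 238 and 267 in the BAT scramblemiR libraries. ScramblemiR library 1, 1 of the 3 libraries of this comparison high in muscle genes, was the lowest of its group in 10 of 14. Without the libraries high in muscle genes, 9 of 14 synthesis genes were below 0 (limma median -0.07), against 3 of 14 (median 0.09) with all libraries.

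In BAT after antimiR-452, 0 of the 31 genes had an unadjusted p under 0.05 in the authors' deposited table, against 0.375% of genes with a mean of at least 10. Of 24248 genes 0 were past the adjusted threshold there (0.0%), and 121 were at an unadjusted p under 0.05. As log2 ratios, 17 of the 31 genes were below 0 and the median was -0.09, against 43.9% of 14672 genes and 0.06. Of the mevalonate genes 5 of 7 were above 0 (median 0.28), and of the sterol arm genes 8 of 11 were below 0 (median -0.15). On the recovered reads, limma's differences were below 0 for 3 of 5 mevalonate genes (median -0.06) and for 8 of 10 sterol arm genes (median -0.33). These sets lack Acat2, Pmvk and Fdft1, which were not recovered, so they differ from the deposited ones. Pmvk and Fdft1 were at 0.605 and 0.327 in the authors' deposited table. The extremes were Idi1 at -0.92 and Tm7sf2 at 0.65 in the authors' deposited table, and Npc2 stood at 0.58.

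Tm7sf2, a sterol reductase, had counts of 195, 412, 617 and 381 in the BAT antimiR-452 libraries, against 194, 292, 269 and 266 in the BAT scramblemiR libraries. Libraries 2 to 4 of antimiR-452 were above all scramblemiR libraries and library 1 was not. The limma difference was 0.55 (standard error 0.34, unadjusted p 0.137, adjusted p 0.999), with p 0.216 in the authors' deposited table. Hmgcs1, which makes HMG-CoA, had 1487, 2017, 828 and 2329 with antimiR-452, against 2296, 1972, 2687 and 3451 with scramblemiR. The groups overlapped in antimiR-452 libraries 2 and 4. By limma the log2 difference was -0.71 (standard error 0.34, unadjusted p 0.063, adjusted p 0.999). Abca1, the pump that passes cholesterol to apolipoprotein A-I, had means of 2213 with antimiR-452 and 3448 with scramblemiR in the authors' deposited table (p 0.224), and its reads were not recovered.

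The antimiR-452 libraries of BAT spread more widely than the scramblemiR libraries. Per gene, the highest antimiR-452 library was a median of 3.05 times the lowest over 24 cholesterol genes, against 1.68 times with scramblemiR, and over all genes tested these ratios were 2.60 with antimiR-452 and 1.63 with scramblemiR. Sqle, squalene epoxidase, had 19.7, 118, 182 and 153 with antimiR-452, against 91.2, 179, 202 and 211 with scramblemiR. Nr1h3 had 944, 2539, 4063 and 1805 with antimiR-452, against 1332, 1696, 1919 and 2124 with scramblemiR. The geometric mean over 15 synthesis genes was 156, 234, 323 and 246 with antimiR-452, against 232, 288, 279.8 and 322 with scramblemiR. Library 1 of antimiR-452, with muscle genes at 868, was the lowest of its group in 10 of 15 synthesis genes, and library 3, with muscle genes at 0.427, the highest in 11 of 15. Without the libraries high in muscle genes, 9 of 15 were below 0 (limma median -0.11), against 11 of 15 (median -0.32) with all libraries. Limma called 0 of 24 cholesterol genes and 0 of 13172 genes (0.0%), and 0 of 24 had an unadjusted p under 0.05, against 4.15% of all genes. Of the 24, 0 had all antimiR-452 libraries below or all above the scramblemiR libraries, against 1.54% and 1.78% of all genes.

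**Figure D4:**
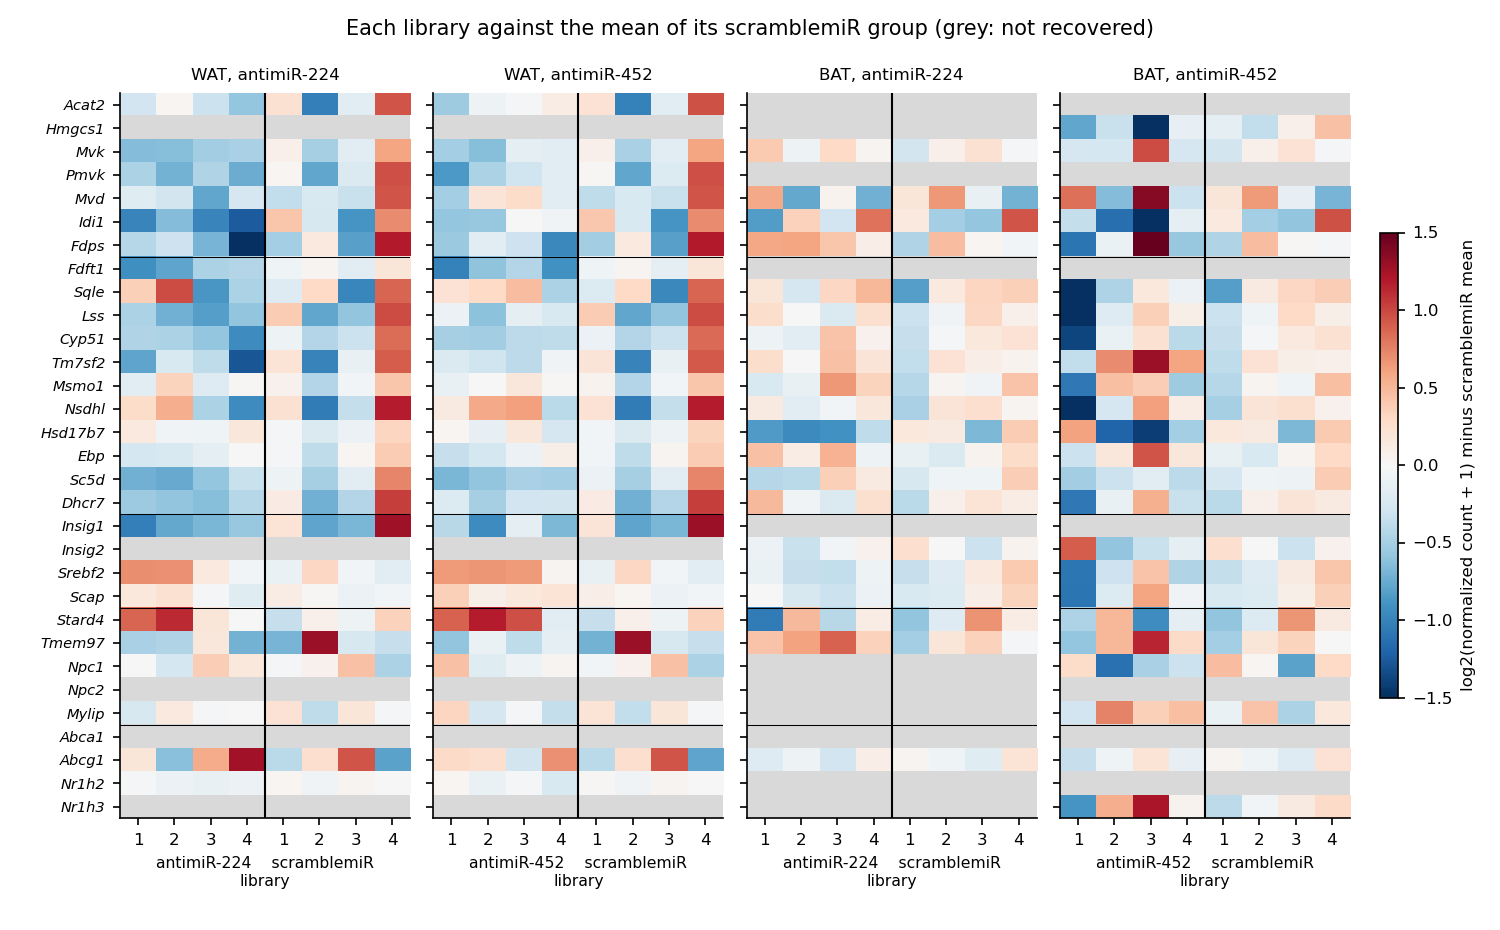
Colour gives each library's log2(normalized count + 1) minus the mean of the scramblemiR libraries, for the 31 genes in rows and 8 libraries in each of the 4 comparisons, inhibitor libraries left of scramblemiR libraries, with grey for genes not recovered. The scramblemiR library of WAT with the highest synthesis mean (779) appears as a single column of high values through the synthesis rows.

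Whether an inhibitor acted differently in WAT and BAT was tested as an interaction in limma, with the tissues treated as independent. Some library numbers in the file headers recur in both tissues of the same treatment, so the tissues may share mice. The test does not take such a pairing into account. After antimiR-224, 0 of 14079 genes and 0 of 19 cholesterol genes passed (0.0%). At an unadjusted p under 0.05 there were 3 of 19, against 7.34% of all genes, namely Hsd17b7, whose difference was higher in WAT by 0.82 on the log2 scale (standard error 0.31, unadjusted p 0.0177), Mvk (-0.74, unadjusted p 0.0183) and Srebf2 (0.60, unadjusted p 0.0463), each with an adjusted p of 0.643. After antimiR-452, 0 of 14603 genes and 0 of 21 cholesterol genes passed (0.0%), and Srebf2 was the 1 gene at an unadjusted p under 0.05 (0.85, standard error 0.38, unadjusted p 0.0395, adjusted p 0.836), against 5.62% of all genes. Fdft1 could not enter either test, because its BAT inhibitor reads were not recovered. The map of single libraries shows the values behind these tests gene by gene.

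Between the tissues of the control mice 10 of the 31 cholesterol genes differed. WAT scramblemiR was compared with BAT scramblemiR on the reads of all 8 libraries scaled together, with the tissues again treated as independent. All 31 genes could be tested, and 10 passed an adjusted p of 0.05 in limma (32.3%), against 42.0% of 16818 genes. Of the 31, 8 passed as lower in WAT, against 19.9% of all genes, and 2 passed as higher in WAT, against 22.1%. Of the 31 genes, 8 had all WAT libraries below the BAT libraries, against 19.9% of all genes, and 2 had them all above, against 21.4%. These were the 10 called genes, so their separation adds no support to the calls. The median log2 difference of WAT minus BAT was -0.36 over the 31 genes, against 0.08 over all genes, and 12 of 18 synthesis genes were below 0 with a median of -0.62. By role, 1 of 7 mevalonate genes, 3 of 11 sterol arm genes, 3 of 4 sensing genes, 1 of 5 uptake and transport genes and 2 of 4 efflux genes passed.

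In synthesis, the genes that passed were lower in WAT. Fdft1 had counts of 909.8, 959, 859 and 1071 in WAT scramblemiR, against 2746, 2771, 1763 and 4765 in BAT scramblemiR (log2 -1.58, standard error 0.26, limma adjusted p 0.00103). Acat2, a thiolase at the first step, had 1302, 538, 1003 and 2141 in WAT, against 2428, 3334, 3967 and 3713 in BAT (log2 -1.58, standard error 0.37, limma adjusted p 0.00798). Dhcr7, the enzyme of the last step from 7-dehydrocholesterol, had 162, 88.1, 110.1 and 305 in WAT, against 332, 454, 508 and 480.4 in BAT (log2 -1.56, standard error 0.35, limma adjusted p 0.00564). The tissues did not overlap in any of these. Hsd17b7 had 140.0, 121, 136 and 179 in WAT, against 324, 314, 183 and 381 in BAT (log2 -1.02, standard error 0.24, limma adjusted p 0.00769), separated by a narrow gap at BAT library 3.

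In sterol sensing, the retention protein gene Insig1 was lower in WAT and its relative Insig2 was higher. Insig1 had 1449, 712, 786 and 3044 in WAT scramblemiR, against 3374, 4593, 5553 and 3852 in BAT scramblemiR (log2 -1.77, standard error 0.43, limma adjusted p 0.00933). Insig2 had 1920.3, 1289.8, 3144 and 1371 in WAT, against 1288, 1071, 869 and 1131 in BAT (log2 0.74, standard error 0.27, limma adjusted p 0.0491). The lowest WAT library of Insig2 was just above the highest BAT library, and the call held in 9 of the 19 settings run. Scap, the escort of SREBP2, had 1051, 972, 921 and 942 in WAT, against 1314, 1319, 1662 and 1972 in BAT (log2 -0.67, standard error 0.16, limma adjusted p 0.00711).

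In transport and efflux the genes went both ways. Npc1, which releases cholesterol from lysosomes, had 994, 1047, 1387 and 728 in WAT scramblemiR, against 3469, 2521, 1456 and 3094 in BAT scramblemiR (log2 -1.31, standard error 0.29, limma adjusted p 0.00499). Abcg1 had 655, 1014, 1677 and 497 in WAT, against 313, 287, 268 and 353 in BAT (log2 1.5, standard error 0.33, limma adjusted p 0.00526). Every WAT library of Abcg1 was above every BAT library, and the reverse held for Npc1. Nr1h2, the liver X receptor beta, had 1487, 1381, 1513 and 1452 in WAT, against 1664, 2004, 2423 and 2322 in BAT (log2 -0.51, standard error 0.15, limma adjusted p 0.0187). Abca1 had 8373, 7033, 11210.2 and 5031 in WAT, against 6173, 3400.2, 3615 and 5209 in BAT (log2 0.77), and just missed the threshold.

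**Figure D5:**
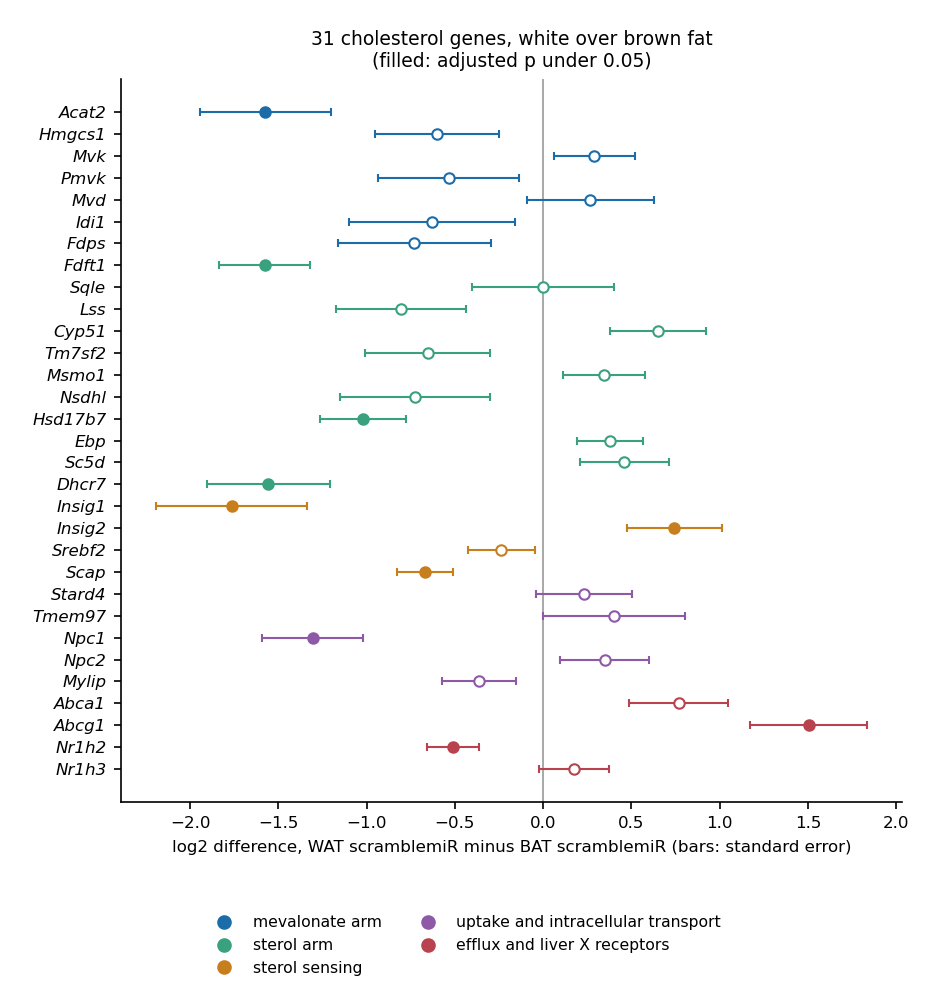
The log2 difference of WAT scramblemiR minus BAT scramblemiR is drawn with its standard error for each of the 31 genes (limma, n = 4 libraries per tissue), and filled points passed an adjusted p of 0.05. Filled points are 8 on the side lower in WAT, from Insig1 at -1.77 to Nr1h2 at -0.51, and Insig2 and Abcg1 on the side higher in WAT.

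The plot of tissue differences shows the 10 called genes among the 31. Markers of other cell types differed between the tissues as well. Macrophage genes (12 of 12 recovered) were at 824 to 1086 in the WAT scramblemiR libraries and 128 to 317 in the BAT scramblemiR libraries, and muscle genes (8 of 8) at 5.60 to 12.9 in WAT and 51.5 to 84468 in BAT. Their part in the differences was not tested. Without the control libraries high in sperm lineage or muscle genes 8 of 31 genes passed, against 38.1% of all genes, and Abcg1 (log2 1.41, adjusted p 0.0563), Npc1 (-1.08, adjusted p 0.0586) and Hsd17b7 (-0.81, adjusted p 0.103) did not. Without WAT scramblemiR library 4, 16 of 31 passed, 13 of them lower in WAT, against 38.4% of all genes, so the members' share lay above that of all genes there and below it with all libraries. The difference of these shares was not tested. Scaled to total reads, the median of all genes moved to 0.61 in favour of WAT, and 15 of 31 genes passed, 10 higher in WAT and 5 lower, against 52.4% of all genes. In that scaling Nr1h2 was at 0.01 (adjusted p 0.951) and Scap at -0.14 (adjusted p 0.468), both less than the shift of the median.

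Levels were compared between genes per kilobase of exon in the control libraries. Npc2, the soluble lysosomal partner of NPC1, was first in both tissues, with a mean of 2036 normalized counts per kilobase in WAT scramblemiR and 1577 in BAT scramblemiR. In WAT, Nr1h3 (1058), Abca1 (763), Pmvk (722) and Insig2 (556) followed, each level within the spread of the next. In BAT, Insig1 (1404), Acat2 (1321), Pmvk (1010.5) and Nr1h3 (938) followed, and neighbours again overlapped. Fdps and Idi1 came last in both tissues, at 9.88 and 8.16 in WAT and at 14.6 and 13.0 in BAT. Fdps and Idi1 share 26.2% and 25.3% of their 50-base words with other genes, Acat2 shares 39.1% and Tmem97 20.8%, so their levels and differences are uncertain where counting could split reads between copies.

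Of 25 other sterol genes, 23 were tested between the tissues and 9 passed, against 42.0% of all genes. Of the 23, 7 passed as lower in WAT and 2 as higher, against 19.9% and 22.1% of all genes. Lipa, the lysosomal lipase that frees cholesterol from its esters, was lower in WAT (log2 -1.24, limma adjusted p 0.00126), whereas Apoe (2.13, limma adjusted p 9.5e-05) and Soat1, which esterifies cholesterol (1.81, limma adjusted p 0.00229), were higher. In the inhibitor comparisons 0 of the 25 were past the adjusted threshold of the authors' deposited tables. At an unadjusted p under 0.05 were 3 of the 25, all in WAT after antimiR-224, against 2.29% of genes with a mean of at least 10 there. They were Srebf1, the regulator of fatty acid synthesis, with means of 5437 with antimiR-224 and 9510.1 with scramblemiR (log2 -0.81, p 0.0138), Nceh1 (0.96, p 0.0418) and Soat1 (0.81, p 0.0419) in the authors' deposited table.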

How the data were processed

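Per the labels' protocols, Trizol-extracted RNA was selected on oligo-dT beads and made into strand-preserving libraries. DESeq 1.10.1, R 2.15.3 and GRCm38.p4 are named per the submitters' processing notes, and the aligner, the counter and the annotation are not given in the sources used. Per the file headers, each table, 1 for each inhibitor and tissue, holds a mean signal (normalized count), the mean of each group, the ratio of inhibitor over scramblemiR, the log2 of it, a p-value and its adjusted value, all computed by the authors.

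A group mean adds up the reads of 4 libraries after division by their size factors. With Python 3.11.15, numpy 2.4.6, pandas 2.3.3 and sympy 1.14.0, size factors were solved and each mean decoded into whole reads. A unique solution was found for 100.0% of genes in both scramblemiR groups, 94.35% in WAT antimiR-224, 95.22% in WAT antimiR-452, 91.93% in BAT antimiR-224 and 93.81% in BAT antimiR-452; the rest, mostly abundant genes, were left out. Of the 31 genes, 26, 26, 20 and 24 were recovered in WAT antimiR-224, WAT antimiR-452, BAT antimiR-224 and BAT antimiR-452, and 31 in the controls. The deposited ratios cover all 31 and carry no error between libraries. Counts of every pair of libraries differed by more than sampling noise (smallest chi-square per degree of freedom 14.1).

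The limma package (3.58.1, R 4.3.3) compared log2(count + 1) of the recovered normalized counts, using its trend and robust options, where a gene's mean reached 10, and p-values were adjusted by Benjamini-Hochberg over all genes tested and called under 0.05. Differences on this scale understate changes of low genes. Scripts were tested on simulated data, and figures were drawn with matplotlib 3.10.9. Libraries are not stated to come from separate mice, so p-values measure the spread between these samples, and tissues were treated as independent. Some library numbers in the file headers recur in both tissues of a treatment, and a possible pairing by mouse was not modelled. Alternatives were a pseudocount of 0.5 or 5, a minimum mean of 0 or 50, the fit without the robust option, other scalings, a deposited adjusted p of 0.10 and each library left out. Sets of libraries high in genes of other cell types were left out as alternatives chosen after seeing the data. The members, gene lists and markers were chosen with earlier results of these data known. Values in every library were given for the 3 genes with the smallest deposited p in each table, for up to 10 called genes of the tissue comparison and for genes at an unadjusted p under 0.05 in both tests. Some genes of the list of other sterol genes are not reported here by name.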

Additional observations from a re-analysis of the deposited data

Results flagged for a closer look

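In 5 of 142 groups of 4 libraries (3.52%) a single library lay far from the other 3 by Dixon's test, which chance alone does in about 1 in 20 groups. In WAT, the scramblemiR library 4 had a normalized count of 393 for Mvd, the mevalonate diphosphate decarboxylase, against 158 to 174 in the other controls. ScramblemiR library 2 had 492 for Tmem97, against 123 to 169, and is the library with sperm lineage genes at 2400.1. In WAT antimiR-452, library 4 had 1235 for Srebf2, against 1869 to 1901 in the other antimiR-452 libraries, and is the one of its group low in epithelium genes. In BAT, antimiR-224 library 4 had 166 for Hsd17b7, against 111 to 119.8 in its group, and antimiR-452 library 3 had 485 for Mvk, against 204 to 207 in its group. The part of the other cell types' genes in these values was not tested.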

How the results depend on the processing

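No paired analysis was possible because the recovered libraries cannot be tied to the replicate numbers of the labels or to the library numbers of the file headers. Leaving out 1 library at a time gave 0 cholesterol genes called in both BAT comparisons, in WAT after antimiR-224 and in both interactions, 0 to 1 in WAT after antimiR-452 (1 without antimiR-452 library 4) and 9 to 16 between the tissues (16 without WAT scramblemiR library 4). With the libraries of high sperm lineage genes left out, a set chosen after seeing the data, 3 genes were called in WAT after antimiR-224. The cause of these moves was not tested. Between the tissues, Nr1h2 changed sign when scaled to total reads (log2 0.012, adjusted p 0.951). Calls higher in WAT were then 81.5% of those over all genes and 10 of 15 cholesterol genes, against 52.6% and 2 of 10 by median-of-ratios scaling. Of the log2 differences of named genes over all settings, 283 kept direction and side of the threshold, 16 lost it, 2 gained it and 1 changed sign. Acat2, Dhcr7, Fdft1 and Insig1 were called in 19 of 19 tissue settings. Leaving out the libraries high in epithelium genes could not be run in WAT after antimiR-452, where 1 inhibitor library would remain. Idi1 and Fdps had the lowest levels of the 31 genes in the control groups, at 8.16 to 14.6 normalized counts per kilobase, and how far depth limits their tests was not measured.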
